A study of Homo sapiens and Mus musculus with 33 samples.

Results

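The regions described here are colon promoters that carried crotonylated lysine 18 of histone H3 (H3K18cr) in mouse epithelium and lay at genes without a listed H3K18 peak in HCT116 cells. A colon H3K18cr peak was taken when it lay within 1 kb of the start of a gene with a mean of at least 1 CPM in colon RNA, where CPM are the counts of a gene scaled to the total of its library. The upper-case symbol of that gene also had to be in the HCT116 RNA table, and no peak of the HCT116 list could lie within 2 kb of the human gene. This gave 468 peaks at 449 genes, out of 8282 peaks at 8448 genes that met every criterion but the last, and out of 30338 colon H3K18cr peaks in all. Genes were matched between the species by symbol alone, and orthology was not checked. Of the 449 genes, 26 had 2 such peaks, and 398 of the peaks touched the gene start. The peaks were thus chosen by their presence in the colon list, the absence of peaks from the HCT116 list and the colon RNA level, so these values define the set and are not results.

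The colon samples were epithelium of male C57BL/6 mice, with 2 H3K18cr libraries and 2 inputs, 3 libraries of H3K4me3 (trimethylated lysine 4 of histone H3) with 1 input, and 3 RNA libraries from 3 mice. HCT116 is a human colon cancer line, treated for 18 h with 5 µM of the HDAC inhibitor MS275 (entinostat) or with DMSO alone. It contributed 3 libraries per treatment for each of H3K18cr and H3K18ac, the acetylated form, with 1 input per treatment, and 4 RNA libraries per treatment. Colons were pooled for ChIP according to the methods, and HCT116 is a single line grown in culture. Species, normal tissue against cancer line, and animal against culture therefore cannot be told apart in any difference between colon and HCT116. The HCT116 list is a single one for both marks and treatments and gives no level at the genes described here, so a missing peak is not a measured zero.

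Crotonylation and acetylation of histone lysines are acyl marks found at active promoters, and class I histone deacetylases such as HDAC1, HDAC2 and HDAC3 can remove both. H3K4me3 marks the starts of active and poised genes, above all those in CpG islands. Many genes of differentiated colon epithelium are instead read from CpG-poor promoters under intestinal transcription factors such as CDX2 and HNF4A, and such genes can be silent in colon cancer cells.

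To show what kind of promoter is involved, the 200 bases upstream of 6 gene starts are printed from the GRCm38 assembly, 5′ to 3′ on the strand of the gene. Dmbt1, Lgals4, Agr2 and Muc13 had the highest colon RNA of the set. Gucy2c was added after its motifs were seen, and Ihh, from the transcription factor list, shows the CpG-rich kind. Every base printed lay inside a colon H3K18cr peak. Capitals mark matches on either strand to the TATA box (TATAAA), an HNF4 motif (CAAAGTNCA) or a CDX2 motif (TTTATGG), and no match overlapped another in these sequences.
Dmbt1, chr7:131031876-131032075, plus strand: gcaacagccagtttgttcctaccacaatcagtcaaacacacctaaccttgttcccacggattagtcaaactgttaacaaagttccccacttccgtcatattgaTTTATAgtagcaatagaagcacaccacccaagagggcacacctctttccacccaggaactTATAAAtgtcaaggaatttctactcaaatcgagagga
Lgals4, chr7:28833775-28833974, plus strand: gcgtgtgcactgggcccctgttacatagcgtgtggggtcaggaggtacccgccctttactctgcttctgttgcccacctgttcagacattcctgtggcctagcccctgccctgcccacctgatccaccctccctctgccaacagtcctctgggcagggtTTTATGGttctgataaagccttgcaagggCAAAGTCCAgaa
Agr2, chr12:35992707-35992906, plus strand: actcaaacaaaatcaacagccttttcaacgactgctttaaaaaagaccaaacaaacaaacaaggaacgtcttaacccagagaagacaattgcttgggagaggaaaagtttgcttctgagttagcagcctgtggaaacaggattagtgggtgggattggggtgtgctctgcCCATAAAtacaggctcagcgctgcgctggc
Muc13, chr16:33793837-33794036, plus strand: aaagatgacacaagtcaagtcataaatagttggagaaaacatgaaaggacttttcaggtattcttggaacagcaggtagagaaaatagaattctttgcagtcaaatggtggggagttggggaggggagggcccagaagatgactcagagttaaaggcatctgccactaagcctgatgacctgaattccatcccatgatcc
Gucy2c, chr6:136781766-136781965, minus strand: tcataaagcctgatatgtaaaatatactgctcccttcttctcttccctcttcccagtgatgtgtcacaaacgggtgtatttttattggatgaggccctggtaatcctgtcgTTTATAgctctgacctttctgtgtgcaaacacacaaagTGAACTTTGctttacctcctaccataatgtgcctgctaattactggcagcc
Ihh, chr1:74951652-74951851, minus strand: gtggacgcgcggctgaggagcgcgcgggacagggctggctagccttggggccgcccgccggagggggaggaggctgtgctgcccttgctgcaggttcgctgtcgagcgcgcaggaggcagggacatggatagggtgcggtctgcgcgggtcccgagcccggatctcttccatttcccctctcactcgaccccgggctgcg
The Lgals4 sequence held an HNF4 and a CDX2 motif, Gucy2c a TATA box and an HNF4 motif, Agr2 a CDX2 motif, and Dmbt1 a pair of TATA boxes. Muc13 and Ihh held none of the 3. Ihh had 21 CpG dinucleotides in its 200 bases, Agr2 4, Dmbt1 and Lgals4 3 each, Gucy2c 2 and Muc13 0.

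The genes with most colon RNA were those of the differentiated epithelial surface. Dmbt1, a secreted mucosal defence protein, was at 4190, 5429 and 4024 CPM in the 3 mice. Lgals4, the galectin of the gut epithelium, was at 3617, 3362 and 3610 CPM, and Agr2, an endoplasmic reticulum protein needed for mucin folding, at 2923, 3649 and 3062 CPM. The SD over the 3 mice was 768 CPM for Dmbt1, 385 for Agr2 and 145 for Lgals4. In the 4 DMSO libraries of HCT116, Lgals4 and Agr2 had no count (0) in any library, and Dmbt1 was at 0, 0.358, 0 and 0.412 CPM. Per kb of exon, the mean colon level was 2488 CPM for Agr2, 1525 for Lgals4 and 644 for Dmbt1.

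The transmembrane mucin Muc13 was at 1618, 1447 and 1490 CPM in colon. In HCT116 DMSO libraries Muc13 was at 0.409 CPM in replicate 3 and at 0 in the others. Among the 12 highest genes were also Gcnt3 at 670 ± 64.8 CPM (SD, n = 3 mice), Clca4 at 587 ± 34.7, Sycn at 585 ± 61.8, Gpx2 at 580 ± 6.84, Pck1 at 539 ± 68.3, Cdh17 at 474 ± 52.5 and Tspan8 at 461 ± 85.0 CPM. The symbol Clca4 was not found in the GENCODE M21 mouse annotation. Whether it names the counterpart of human CLCA4 was not checked, so its HCT116 values and membership carry that reserve. Of the 12 genes, Gcnt3, which branches O-glycans on mucins, was the exception in HCT116, at 2.36, 4.32, 3.66 and 4.12 CPM. The other 11 had a mean under 1 CPM there.

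**Figure D1:**
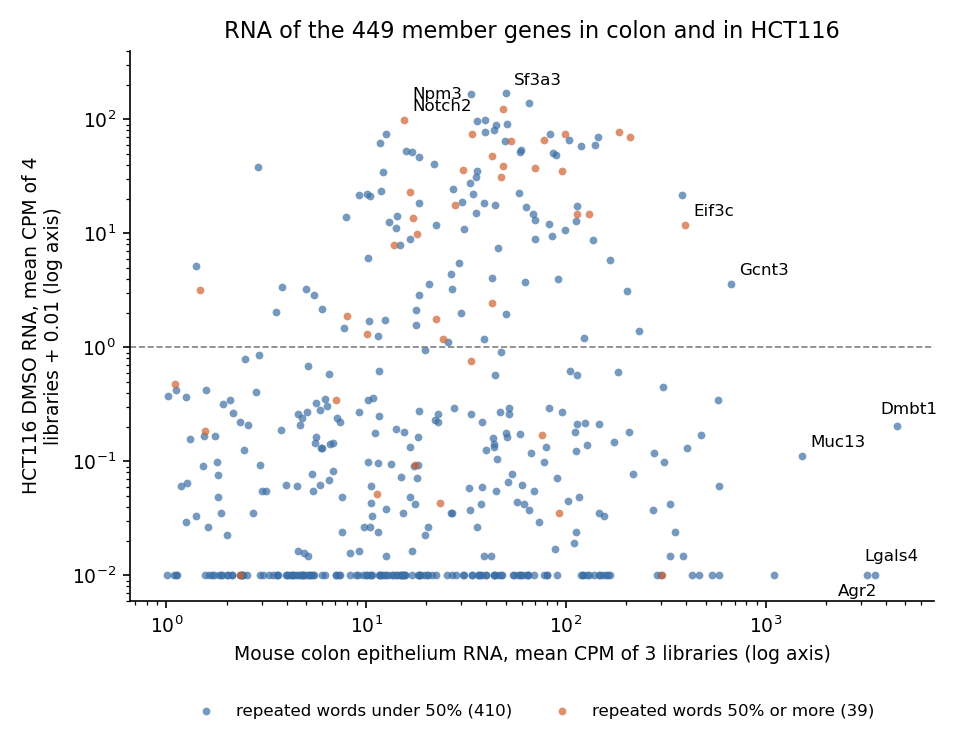
Mean RNA of the 449 genes in mouse colon epithelium (x axis, CPM, 3 libraries) against HCT116 treated with DMSO (y axis, CPM + 0.01, 4 libraries), both on log axes. The dashed line is 1 CPM. Of the points, 329 lie below it, and the orange points are the 39 genes with 50% or more repeated words around their human start.

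Over the whole set, 329 of the 449 genes had a mean under 1 CPM in the DMSO libraries of HCT116 (73.3%, Wilson 95% interval 69.0 to 77.2, which covers counting error only), and 147 had no count in any of the 4. Among the 7999 matched genes with an HCT116 peak, 351 were under 1 CPM (4.39%, interval 3.96 to 4.86). The set's median was 0.0724 CPM in HCT116 against 18.5 CPM in colon. The matched genes with an HCT116 peak had medians of 39.5 and 48.0 CPM. In all 8 HCT116 libraries, 297 of the 449 genes stayed under 1 CPM. In bulk RNA, fewer cells of a type and less RNA per cell cannot be told apart.

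At the peaks themselves, H3K18cr reads exceeded the input in both library pairs at 467 of 468 peaks. The same held at 7813 of the 7814 other promoter peaks of matched genes. Peaks are called where ChIP reads exceed the input, so these counts follow from the rule and are not results. Reads were scaled by the authors to the largest library. The median was 105 and 165 scaled reads in the 2 ChIP libraries and 44 and 56.5 in the inputs, a median log2 ratio of 1.27 and 1.61 after 1 read was added to each. The other 7814 promoter peaks of matched genes had median log2 ratios of 1.39 and 1.73. The set was thus lower by 0.13 in each pair, and no test was made with 2 pairs. Among genes under 1 CPM in HCT116 the sign of the gap differed between the pairs, with 1.26 and 1.63 for the set and 1.27 and 1.61 for the other promoter peaks. For colon levels from 1 to under 10 CPM the set was lower in the first pair, 1.22 against 1.27, and not in the second, 1.56 against 1.56. From 10 to under 100 CPM it was lower in both pairs, 1.29 against 1.38 and 1.66 against 1.71. At 100 CPM or more it was lower in both as well, 1.27 against 1.46 and 1.71 against 1.86. Widths were alike, with a median of 1650 bp in each set.

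Single peaks varied. The Lgals4 peak (chr7:28830751-28841550) was 10800 bp wide, with 868 and 1524 scaled reads against 285 and 337 in the inputs. The Ihh peak (chr1:74948401-74952750), at the gene of the hedgehog ligand made by differentiated colonocytes, had 375 and 781 scaled reads against 122 and 130. The Agr2 peak (chr12:35992651-35995050) had 135 and 269 against 70.0 and 67.2, so that the second library was further above its input than the first.

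Among peaks with at least 50 scaled ChIP reads, the highest mean log2 ratio was 2.57 at Shroom4, an actin-binding protein, followed by 2.45 at Mfsd6l and 2.44 at Tusc1. The lowest was 0.66 at Evx1, a homeobox factor, with 39.8 and 92.4 scaled reads against 35.0 and 41.2, followed by 0.71 at a peak of Chst4 and 0.77 at Rad54b. Of the 6 highest, Fam101b alone was above 1 CPM in HCT116. Of the 6 lowest, Rad54b was, and the 6 lowest also held Pcdh18 and Gstm2.

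**Figure D2:**
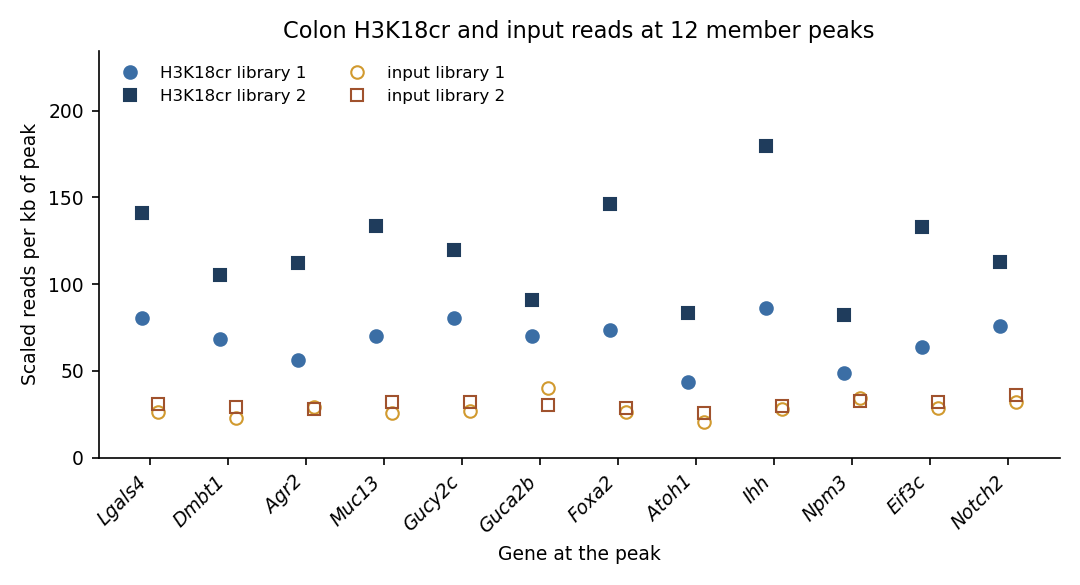
Scaled reads per kb of peak in the 2 colon H3K18cr libraries (filled) and the 2 inputs (open) at 12 peaks, 1 peak per gene. The H3K18cr points lie above both inputs at each gene, which the choice of peaks favours, and library 2 lies above library 1.

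The overlap with the colon H3K4me3 peaks was described next, since the rule did not use this mark. Of the 468 peaks, 370 overlapped an H3K4me3 peak by at least 1 bp (79.1%, interval 75.1 to 82.5), against 7586 of 7814 of the other promoter peaks (97.1%, interval 96.7 to 97.4). The gap was present at every colon RNA level. It was 77.4% against 93.5% for genes from 1 to under 10 CPM, 84.1% against 97.7% from 10 to under 100 CPM, and 66.3% (interval 55.4 to 75.7) against 97.8% at 100 CPM or more. Silence in HCT116 moved with it. Peaks of genes under 1 CPM in HCT116 overlapped H3K4me3 in 73.2% of 347 cases, and peaks of genes at 1 CPM or more in 95.9% of 122, with 1 peak shared by both kinds of gene. Among the other promoter peaks, those of genes under 1 CPM in HCT116 overlapped in 83.0% of 364 cases (interval 78.8 to 86.5), next to 73.2% (interval 68.3 to 77.6). The peaks are not independent samples, and the intervals cover counting error only.

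**Figure D3:**
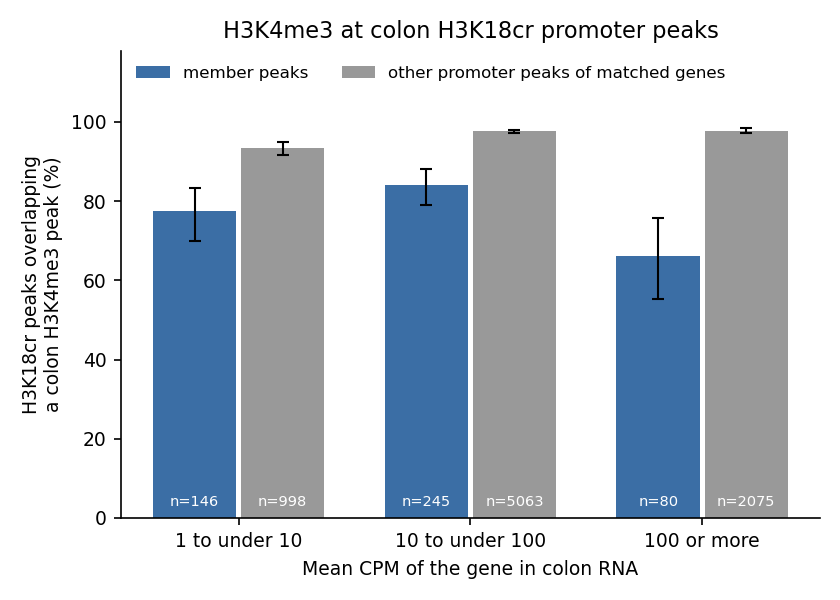
Share of colon H3K18cr promoter peaks that overlap a colon H3K4me3 peak, by mean colon CPM of the gene, for the peaks described here (blue) and the other promoter peaks of matched genes (grey). Bars start at 0, error bars are 95% Wilson intervals and n is the number of peaks. The blue bar is lower at each level, 66.3% against 97.8% at 100 CPM or more.

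In all, 82 genes had no peak that overlapped H3K4me3. The 6 of these with most colon RNA were Agr2, Clca4, Gpx2, Selenbp1, Sult1a1 and Hepacam2, at means of 350 to 3212 CPM. From the Agr2 peak the nearest H3K4me3 peak was 46.4 kb away, from the peak of the intestinal glutathione peroxidase Gpx2 20.9 kb, and from that of Hepacam2 3901 bp. Over the 82 genes the median distance was 25.2 kb, with 27 genes within 10 kb and 9 within 1 kb. At 5 of these, Nupr1, Tmem176a, Tmem176b, Pdzd3 and Praf2, the H3K4me3 peak adjoined the H3K18cr peak without an overlap. The selenium-binding protein gene Selenbp1 was at 479, 299 and 435 CPM, with 114 and 209 scaled H3K18cr reads against 50 and 68.7 in the inputs and the nearest H3K4me3 peak 19.5 kb away. Where an H3K4me3 peak was present, its level ranged widely. Ihh had 625, 1196 and 1703 scaled H3K4me3 reads against 100 in the input, and Foxa2 had 379, 605 and 866 against 77. Cdh17, an intestinal cadherin, had 46.0, 61.5 and 86.8 against 20. The median H3K4me3 level of the overlapped peaks was 69.9, 115 and 156 scaled reads per kb in the 3 libraries, and 85.6, 148 and 194 for the other promoter peaks, with 20 in the input for both. Among genes under 1 CPM in HCT116 the order turned, with 67.0, 105 and 138 for the set and 61.3, 100 and 132 for the other promoter peaks.

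The CpG content of the gene starts was low where the gene was silent in HCT116, with or without an HCT116 peak. In the window from 250 bases before to 50 after the mouse start, the ratio of observed to expected CpG had a median of 0.46 for the 329 genes under 1 CPM and 0.76 for the other 120. For matched genes with an HCT116 peak it was 0.44 for the 351 under 1 CPM and 0.80 for those above. Over all 25952 starts of the colon table the median was 0.48. At the human starts, from the RefSeq promoter table of GRCh38.p14, 331 of the 449 genes were matched and had a median of 0.66, against 0.86 for 6344 genes with an HCT116 peak.

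The TATA box was found in 10.7% of the mouse windows, against 6.03% for genes with an HCT116 peak and 13.1% of all mouse starts. The HNF4 motif was found in 3.79%, against 1.05% and 1.35%, and in 1.81% of the human windows, against 0.646% for human genes with an HCT116 peak and 1.07% of all 27305 human promoters of the table. The CDX2 motif was in 2.67% of the mouse windows, against 1.69% and 2.63%. A match is a string of letters and not a measured binding site, and 17 genes had the HNF4 motif in mouse and 6 in human.

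The gene lists were written by hand, with earlier results of these data known, and the counts below describe them without a test. They stand beside a share of 5.31% over all matched genes with a colon promoter peak, 449 of 8448. The colon libraries were epithelial by their markers. Epcam, the epithelial adhesion molecule, was at 2038, 1793 and 1769 CPM and the simple keratin Krt8 at 2296, 2071 and 1898, while the leukocyte marker Ptprc was at 13.8, 20.4 and 22.3, the T cell marker Cd3e at 3.80, 5.70 and 9.48 and the collagen Col1a1 at 1.10, 1.49 and 0.722 CPM. HCT116 had KRT8 at 1476 to 2226 CPM and EPCAM at 309 to 447 CPM over the DMSO libraries.

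Of 38 absorptive colonocyte genes, 22 were matched and had a colon H3K18cr promoter peak, and 6 of these were in the set, among them Slc6a14, Mep1a, Mep1b, Guca2b and Alpi. Each was under 1 CPM in HCT116. Slc6a14, an amino acid transporter, was at 450, 218 and 327 CPM in colon, a wide spread. The metalloprotease meprin has its alpha and beta subunits encoded by Mep1a, at 181, 127 and 134 CPM, and Mep1b, at 54.5, 39.3 and 47.1 CPM. Guca2b, which encodes the hormone uroguanylin, was at 36.9, 50.8 and 44.5 CPM. Its receptor gene Gucy2c, which is on no list, was a member too, at 415, 440 and 425 CPM in colon and 0 counts in the DMSO libraries of HCT116. Slc6a14, Mep1a, Mep1b, Guca2b and Alpi had no H3K4me3 peak at their H3K18cr peaks.

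Among 44 intestinal transcription factors and signals, 37 were matched with a promoter peak and 8 were members, all under 1 CPM in HCT116. Atoh1, the factor that commits cells to the secretory lineage, was at 242, 285 and 297 CPM in colon and at 0, 0.303, 0 and 0.131 CPM in HCT116. Ihh was at 138, 154 and 150 CPM, and the pioneer factor gene Foxa2 at 71.8, 65.1 and 64.1 CPM. The bone morphogenetic protein genes Bmp3 and Bmp2 were at 33.8 ± 2.88 and 17.0 ± 2.21 CPM (SD, n = 3), the nuclear receptor gene Esrrg at 11.7 ± 2.47 and the leucine zipper factor gene Maf at 7.08 ± 1.31. Of the 8, Ihh, Bmp3, Bmp2, Esrrg and Maf had no count in the 4 DMSO libraries. Each of the 8 had an H3K4me3 peak at its H3K18cr peak, unlike the 5 colonocyte genes named above.

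The goblet and mucus list of 23 genes gave 3 members of 10 matched genes with a promoter peak, Agr2, Atoh1 and the tryptase Tpsg1, the last at 122 ± 13.3 CPM. The enteroendocrine list of 20 gave 2 of 3, the prohormone convertase Pcsk1 at 60.0 ± 8.71 CPM and secretin, Sct, at 14.8 ± 4.04 CPM. The list of adhesion, keratin and tight junction genes gave 6 members of 34, among them Cdh17, the liver-intestine cadherin, at 534, 437 and 451 CPM, and the claudin gene Cldn8 at 95, 70.3 and 75 CPM. The ion, water and solute transport list gave 5 of 45, Clca4, Slc6a14, Slc13a2, Slc39a5 and the iron exporter gene Slc40a1. Crypt base and progenitor genes gave 0 of 16, tuft cell genes 0 of 2 and imprinted genes 0 of 6, lists so short that the share over all matched genes would give 0.85, 0.11 and 0.32 genes.

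Innate defence and antigen presentation gave 10 of 35 genes. Besides Dmbt1, these were the hydrogen peroxide source Duox2, at 136, 198 and 190 CPM, its maturation factor Duoxa2, the interferon regulatory factor Irf8 at 115, 120 and 122 CPM, the inflammasome protease Casp1 at 93.7, 64.4 and 74.6 CPM, the lipopolysaccharide receptor Tlr4 at 17.1, 19.2 and 22.1 CPM, the lipopeptide receptor Tlr2 at 21.6, 16.4 and 17.6 CPM, Ccl28, Il1rn and Tnfsf10. Irf8, Casp1, Tlr4 and Tlr2 had 0 counts in all 8 HCT116 libraries. Several of these genes are also used by leukocytes. The lymphocyte and myeloid list had 2 members of 4 matched genes with a promoter peak, Cd14 and Cytip, and the stromal list had 1 of 2, Pdgfrb. The part of leukocytes and stroma in these peaks was not tested.

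The list for lipid, bile acid, ketone and xenobiotic metabolism gave 8 of 39 genes. The fatty acid carrier Fabp2 was at 140, 115 and 86.0 CPM and the lipoprotein gene Apob at 65.3, 40.1 and 27.9 CPM. Of the 8, 6 were under 1 CPM in HCT116. The exceptions were the sterol hydroxylase gene Cyp27a1, at a mean of 1.26 CPM, and the sulfotransferase gene Sult1a1, at 423, 353 and 363 CPM in colon and 14.2, 27.5, 26.1 and 18.4 CPM in the DMSO libraries. Wnt antagonists and other genes known to be silenced in colon cancer gave 3 of 22, Bmp3, the syndecan gene Sdc2 at 33.2 ± 5.20 CPM and Gata5 at 1.40 ± 0.487 CPM. Of the 60 genes on that list, 32 reached 1 CPM in colon.

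The other 120 genes of the set had RNA in HCT116 but no listed H3K18 peak within 2 kb. The highest was Sf3a3, a splicing factor, at 214, 168, 137 and 157 CPM in the DMSO libraries, then the histone chaperone Npm3 at 176, 148, 214 and 126, the mitochondrial ribosomal protein gene Mrps23 at 169, 130, 140 and 114, Arhgap11a at 173, 113, 91.5 and 117, the receptor gene Notch2 at 103, 99.7, 54.3 and 141, and the envoplakin gene Evpl at 92.6, 110, 92.8 and 99.8 CPM. For these genes the human sequence was examined, since the authors kept only uniquely mapped reads. Around each human gene start, from 1 kb before to 1 kb after, 50-base words were taken every 10 bases and counted in GRCh38 on both strands. A word was called repeated when it occurred more than once. A start with at least 50% repeated words is called repeated here, a limit chosen after the values were seen.

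Repeated starts were common among the expressed genes of the set and rare elsewhere. They made up 28 of the 120 genes at 1 CPM or more (23.3%, interval 16.7 to 31.7), against 21 of 7647 expressed genes with an HCT116 peak (0.275%, interval 0.18 to 0.419). Among genes under 1 CPM they were 11 of 329 in the set (3.34%, interval 1.88 to 5.89) and 1 of 351 with an HCT116 peak. To show what such a start is, repeated words close upstream of 5 of them are printed from GRCh38, on the strand of the gene.
NOTCH2: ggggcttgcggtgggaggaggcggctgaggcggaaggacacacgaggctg
EIF3C: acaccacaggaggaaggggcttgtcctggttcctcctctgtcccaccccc
NSF: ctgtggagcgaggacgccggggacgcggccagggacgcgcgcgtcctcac
U2AF1: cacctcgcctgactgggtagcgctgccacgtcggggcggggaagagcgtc
CBS: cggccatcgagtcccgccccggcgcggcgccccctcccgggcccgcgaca
The NOTCH2 word stands at chr1:120069657-120069706 and at 4 other places of chromosome 1. The EIF3C word occurs 3 times on chromosome 16, and the NSF word 2 times on chromosome 17, at chr17:46372698-46372747 and chr17:46590619-46590668. The U2AF1 word occurs at chr21:43107584-43107633 and chr21:6499262-6499311, and the CBS word at chr21:43076363-43076412 and chr21:6468041-6468090. These are places in the GRCh38 assembly, and whether each is a separate copy in the human genome was not tested. The mouse genes of the same symbols each had their own colon peak.

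The share of repeated words was 100% at NSF, the vesicle fusion ATPase, 93.5% at CBS, the first enzyme of transsulfuration, 90.0% at the splicing factor U2AF1, 83.5% at the translation initiation factor EIF3C, 82.5% at NOTCH2 and 61.5% at ARHGAP11A. Whether RNA reads of these genes map to more than 1 place was not tested, and their counts are given with that reserve. In the DMSO libraries U2AF1 was at 1.02, 60.4, 1.28 and 7.84 CPM, so that replicate 2 stood far above the other three. CBS had no count in any of the 8 HCT116 libraries while its mouse counterpart was at 251, 319 and 343 CPM in colon. The HCT116 counts of CBS were taken at chr21:6444869-6468040, next to the word at chr21:6468041-6468090 and not to the other. Its 0 is thus not a measured absence of RNA, although CBS is among the 147 genes without a DMSO count. NSF was at 76.5, 49.8, 54.7 and 80.7 CPM. EIF3C was at 20.04, 7.88, 7.42 and 12.5 CPM in DMSO libraries, against 385, 393 and 409 CPM for Eif3c in colon.

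Repeated sequence moved with only some of the expressed genes. Of the 120, 51 had at least 10% repeated words (42.5%) and 38 had none (31.7%). Of the 7647 expressed genes with an HCT116 peak, 363 had at least 10% (4.75%) and 4545 had none (59.4%), and the ratio of the shares was thus smaller at this limit than at 50%. NPM3 and MRPS23 had 0% repeated words and the nearest HCT116 peak at 32.7 and 4.20 kb. VTA1, an endosomal sorting protein, was at 90.2, 88.4, 60.7 and 115 CPM, with 0% repeated words and the nearest peak 73.3 kb away. The part of unique mapping in the missing peaks was not tested. Over the whole set, the nearest HCT116 peak was at a median of 26.0 kb, under 5 kb for 47 genes and over 100 kb for 94. For 3 genes on the human Y chromosome no distance exists, because the HCT116 list has no peak there.

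**Figure D4:**
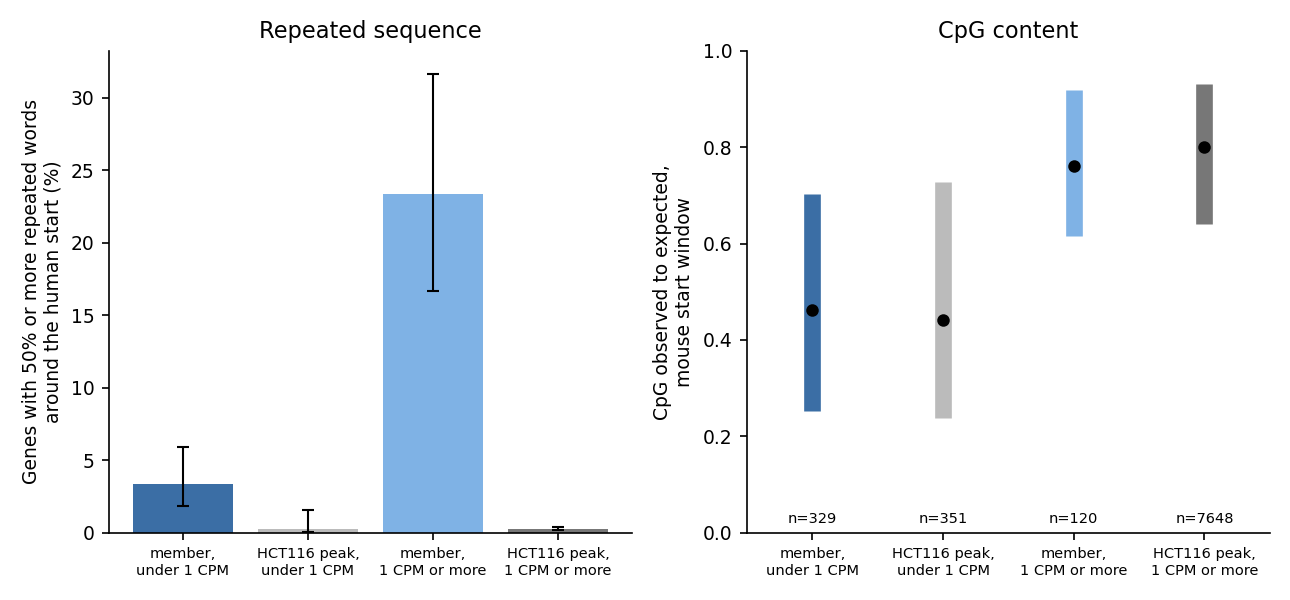
Left, share of genes whose human start has 50% or more repeated 50-base words, with 95% Wilson intervals. Right, ratio of observed to expected CpG around the mouse start, with the median (point) and the middle range between quartiles (bar). The groups are genes of the set and matched genes with an HCT116 peak, each under or at 1 CPM or more in HCT116. The repeated share is 23.3% in expressed genes of the set, and CpG is low in both silent groups.

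The question of whether an HDAC inhibitor moved these genes in HCT116 was taken from the MS275 and DMSO RNA libraries. Only 151 of the 449 genes passed the filter on low counts, so the genes that were silent are mostly not covered. Without the replicate number in the model, 0 of the 151 were called by edgeR's quasi-likelihood test with Benjamini-Hochberg adjustment at an adjusted p under 0.05, and 5 at an unadjusted p under 0.05 (3.31%, against 6.60% of all genes), while 0.00668% of the 14961 genes tested were called. DESeq2 called 0 of 178 as well, against 0.985% of all genes. With the replicate number as a block, edgeR called 18 of the 151, 9 higher and 9 lower, or 11.9%. Over all 14961 genes the same fit called 14.4%, 7.83% higher and 6.55% lower, so the share in the set was near that background. The median log2 change of the 151 genes was 0.16 with the block, against 0.01 over all genes. Without the block it was 0.14, and without the filter on low counts 0.03 over 344 genes of the set, against -0.04 over all genes.

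The 16 genes named here had the 8 largest rises and the 8 largest falls among the 18 called with the block, and none passed without it. Some genes that were not called had larger fitted changes. Atp2c2, a calcium and manganese pump of the secretory pathway, rose from 5.23, 6.06, 2.33 and 9.79 CPM with DMSO to 12.1, 13.8, 9.97 and 16.8 CPM with MS275, a log2 change of 1.28 ± 0.23 (SE, adjusted p = 0.0034 by edgeR with the block). All 4 MS275 libraries of Atp2c2 were above all 4 DMSO libraries. Without the block its log2 change was 1.17 ± 0.34 (adjusted p = 0.43 by edgeR). Gprin3, a neurite outgrowth gene, rose from 0.49, 1.90, 0.742 and 2.75 CPM to 2.89, 8.93, 2.08 and 8.20 CPM, a log2 change of 1.94 ± 0.37 (adjusted p = 0.0049 by edgeR with the block). It was higher in each of the 4 pairs, although the groups overlapped.

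The tetraspanin gene Tspan7 rose by a log2 change of 0.95 with the block, Fam72a by 1.13, the phospholipase gene Pla2g4a by 0.74, Lrp12 by 0.66, Arhgef5 by 0.51 and Notch2 by 0.34. Notch2 went from 103, 99.7, 54.3 and 141 CPM to 136, 139, 63.2 and 173 CPM, higher in each pair. The human starts of Notch2, Arhgef5 and Fam72a are repeated, at 82.5%, 96.0% and 84.0% of words, and so is that of Thoc3 below, at 79.5%. Its part in their counts was not tested.

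Gcnt3 had the largest fall among the called genes, from 2.36, 4.32, 3.66 and 4.12 CPM to 0.907, 0.712, 0.421 and 2.65 CPM, a log2 change of -1.92 ± 0.54 (adjusted p = 0.034 by edgeR with the block). Replicate 4 with MS275 remained above replicate 1 with DMSO. Fdx1l fell by 0.75 on the log2 scale, the retinal reductase gene Dhrs4 by 0.61, the DNA demethylase gene Alkbh3 by 0.55, Thoc3 by 0.42, the pyruvate dehydrogenase subunit gene Pdhb by 0.36, Npm3 by 0.34 and Tsc2, a brake on mTORC1, by 0.31. Npm3 went from 176, 148, 214 and 126 CPM to 129, 129, 162 and 105 CPM and was lower in each pair, with overlapping groups. Without the block the log2 change of Thoc3 was -0.45, and -0.26 when replicate 4 was left out.

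**Figure D5:**
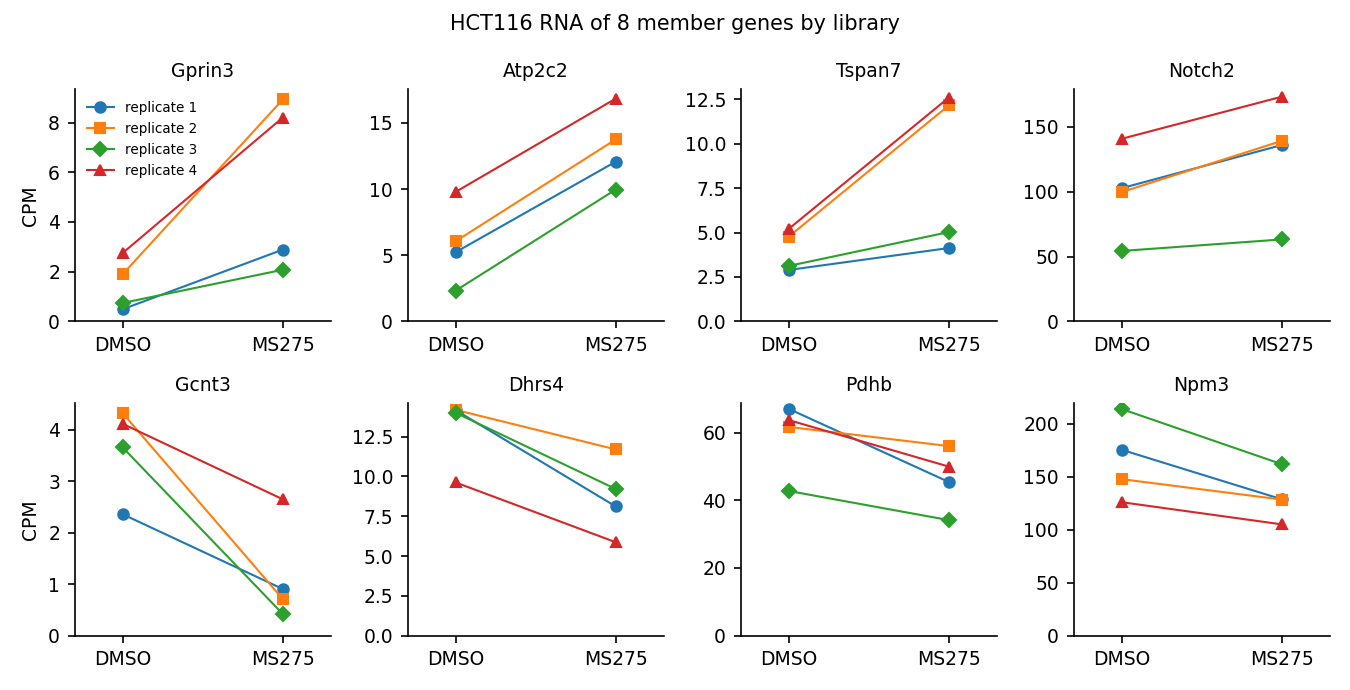
CPM of 8 genes of the set in the HCT116 RNA libraries, DMSO and MS275, with lines joining libraries of the same replicate number. Each axis starts at 0 and has its own scale. All 4 lines rise in the upper row and fall in the lower row, and only Atp2c2 has groups that do not overlap.

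Of the 329 genes under 1 CPM with DMSO, most stayed there with MS275. The mean reached 1 CPM in 6 of them (1.82%), against 53 of 351 such genes with an HCT116 peak (15.1%). Their median with DMSO was 0.0140 CPM in the set and 0.140 CPM in the other group, and the part of this starting level was not tested. The 6 genes were Gal3st1, Fam115c, Ikzf2, the immune checkpoint ligand gene Cd274, Barx2 and Catsper2, of which none was called with the block by edgeR (adjusted p from 0.11 to 0.47). Lgals4 had a count in 1 MS275 library (0.0239 CPM in replicate 1), Agr2, Bmp2 and Bmp3 in none, and Ihh in 1 (0.215 CPM in replicate 1). The gene lists were counted over all their genes tested in HCT116, whether in the set or not, beside the 14.4% called over all genes with the block. The absorptive colonocyte list had 1 of 8 called, higher with MS275, and the transcription factor list 5 of 29, with 4 higher. The crypt base and progenitor list, which has no gene of the set, had 9 of 16 called, with 8 higher, and the list of genes silenced in colon cancer 6 of 25, each higher. The adhesion, keratin and tight junction list had 16 of 27 called, with 9 higher and 7 lower. The remaining 9 lists had 0 to 5 called of 4 to 36 tested. Without the block no gene of any list was called (0).

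The members nearest to each limit were ordinary in value. Peaks of Tubb2b and Pdgfrb lay inside at 947 and 1000 bp from the gene start. Peaks of Ston1 and Fcamr lay outside at 1017 and 1052 bp, although both genes were members through another peak at their start. Ccrl2 and Nexn were at 1.00 and 1.02 CPM in colon, with Tmem174 and Rerg outside at 0.968 and 0.956 CPM. Soat2 and Arhgef5 were 2018 and 2019 bp from an HCT116 peak, with Hist1h4i and Dqx1 outside at 1938 and 1915 bp.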

How the data were processed

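The 33 libraries of the series come from 5 deposited tables and were grouped by their labels; 0 columns were left unmapped. The members and the gene lists were chosen with earlier results of these data known. For the RNA tables the authors trimmed reads, mapped them with HiSat2 (TopHat2 2.0.12 in the submitters' processing notes) and deposited raw read counts per gene; strand use in counting is not stated. For ChIP-seq the authors mapped reads to GRCm38 or GRCh38 with Bowtie2 (2.2.5 in the notes), kept uniquely mapped reads and called peaks with MACS in SEQMONK. The colon tables hold a signal, the read count scaled by 1 factor per library, as the authors deposited it. The HCT116 peak table was deposited as log2 of scaled counts, and only its peak positions were used here. H3K18cr libraries had 2190272 and 3451663 reads in peaks, inputs 1437984 and 1187019, H3K4me3 libraries 1105419 to 2711830 and their input 770954. RNA libraries had 8166406 to 10707901 counts in colon and 35608533 to 53415604 in HCT116. In HCT116 libraries 50.4% to 80.7% of the counts from 1 to 20 were odd, so a low count may not be 1 read.

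CPM were computed over the whole table. Log2 ratios used a pseudocount of 1. Exon lengths came from GENCODE M21, and the starts and sequences from the tables, GRCm38 and GRCh38. For MS275 the quasi-likelihood test of edgeR 4.0.16 was run in R 4.3.3 over all genes, after TMM scaling and filterByExpr, with Benjamini-Hochberg adjustment at 0.05, and DESeq2 1.42.0 as an alternative. On simulated counts edgeR recovered 179 of 200 genes changed 4-fold, with 6 false calls among 14961 genes. The simulation gave all genes the same spread, had no replicate effect and changed only genes with higher counts. It therefore does not give the power for the genes of the set. Deviations of same-numbered libraries correlated at 0.226, 0.151, 0.433 and 0.460 (numbers 1 to 4), each above 0.1, so libraries sharing a number were taken to be paired and results are given with and without this block. Number 2 did not correlate highest with its own number, while 1, 3 and 4 did. The labels do not say what a number marks, so p-values measure the spread between these libraries. Named genes were the list members, the 12 highest in colon, the 6 highest and lowest ratios with at least 50 reads, the 6 highest in HCT116, the 6 highest without H3K4me3, the 8 largest rises and falls among genes called for MS275 with at least 20 counts, and those nearest each limit; others were chosen after their values were seen. Some named members are not reported here. Python 3.11.15, pandas 2.3.3 and scipy 1.17.1 were used for the rest.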

Additional observations from a re-analysis of the deposited data

Results flagged for a closer look

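Over 25 named genes and both treatments, 50 groups of 4 HCT116 RNA libraries were searched for a library far from the other three by Dixon's test, which chance flags in about 1 of 20 groups, and 4 were flagged. U2AF1 was at 60.4 CPM in DMSO replicate 2, against 1.02 to 7.84 CPM in the other DMSO libraries. EIF3C was at 68.0 CPM in MS275 replicate 1, against 6.26 to 16.7 CPM in the others. ARHGEF5 was at 29.3 CPM in MS275 replicate 3, against 18.2 to 19.99 CPM. DHRS4 was at 9.62 CPM in DMSO replicate 4, against 14.0 to 14.2 CPM. The human starts of the first 3 genes are repeated, at 90.0%, 83.5% and 96.0% of words, and that part was not tested.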

How the results depend on the processing

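The number of peaks in the set, 468, stayed within 358 to 521 under the other limits of the rule and within 464 to 470 when each colon RNA library was left out. The H3K4me3 share of 79.1% was 69.4% when the overlap had to cover 50% of the peak, 87.3% for the peaks with a ratio above the median of all peaks and 73.2% for genes under 1 CPM in HCT116 (added after the data were seen). H3K4me3 peaks are a single list over the 3 libraries, and asking for more reads than the input in a given library removed no overlap, so this bears on nothing. The share of genes under 1 CPM in HCT116, 73.3%, was 52.8% at a limit of 0.1 CPM, 80.4% at 5 CPM, 65.1% among the 344 genes with a count and 77.6% without repeated human starts (added), and 72.8% to 73.7% without each DMSO library. The share of repeated starts, 23.3%, was 42.5% at a limit of 10% of words (added), against 0.275% and 4.75% of expressed genes with an HCT116 peak. The human CpG ratio of 0.66 was 0.59 in a 1 kb window. The median log2 ratio of 1.43 was 1.28 with a pseudocount of 10. The MS275 calls in the set, 0, were 18 with the replicate block and 0 under the other alternatives, leaving out each replicate included; over all genes the calls were 1 without and 2151 with the block, 13 of 24974 without a filter and 0 to 8 without each replicate. The causes were not tested. The filter on low counts left 298 of the 449 genes untested for MS275, and peak presence gives no level in HCT116.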
